A study of Mus musculus with 21 samples.

Results

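The 10 RNA-Seq libraries of POMC neurons, out of 21 libraries in the series, compare 5 food-deprived (FD) with 5 fed mice. Members were chosen by their labels, as every library of POMC neurons, and each library came from 1 male mouse. The other 11 libraries are AGRP neurons (6 FD, 5 fed) of male NPY-hrGFP mice aged 46 to 55 days on the same background, which shared the model's estimate of the spread. All 10 POMC mice were of the Pomc-GFP strain, transgenic mice in which the *Pomc* promoter drives a fluorescent protein, on a C57BL/6J background. Each was moved alone to a clean cage for 24 h, with water only (FD) or with food ad libitum (fed). Fluorescent cells were picked by hand from dissociated arcuate nucleus, 44 to 120 cells per library, so the profile is that of cells in which the transgene was active. The comparison asks which transcripts change in POMC neurons when the animal is in energy deficit.

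POMC neurons of the arcuate nucleus are known for restraining appetite. They cut the POMC precursor into melanocortin peptides that act on melanocortin receptors, and they sense leptin, insulin and nutrients. During fasting leptin falls and circulating glucocorticoid rises, and the melanocortin output of these neurons is known to drop.

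FD mice lost 16.2 to 19.6% of their weight, whereas fed mice changed by −0.467 to 2.09%. Depth was 9822298 to 23924870 gene counts in FD and 18228116 to 26296967 in fed libraries. The volume of ERCC spike-in RNA (synthetic transcripts of known amount) was not the same throughout. FD 1 to 3 and fed 3 to 5 received 1 µl (mice of postnatal day 55 to 56), FD 4 and 5 received 10 µl (day 54), and fed 1 and 2 received 2.16 and 2.04 µl, set by cell number (day 51). Fed 1 and 2 stood apart in gene counts per ERCC count, multiplied by the µl added, at 470 and 522 against 68.6 to 208 in the other 8. Within the 10 libraries, spike-in set and age therefore cannot be told apart from condition except in the 6 libraries with 1 µl, and values from that set are given beside the results. The 12 markers listed for POMC neurons each passed 20 normalized CPM (read counts scaled for library size and composition by TMM) in at least 1 library, and summed to 3834 to 6014 in FD and 5346 to 13744 in fed libraries. Most of this sum was *Pomc* (2184 to 3782 in FD and 3503 to 8196 in fed libraries) and *Cartpt*. Both are treated below as results, so the sum is no measure of purity. Markers of astrocytes, oligodendrocytes, microglia and endothelium summed to 144 to 221 normalized CPM in FD and 139 to 328 in fed libraries, with 5 of 24 (*Cldn11*, *C1qa*, *C1qb*, *Tmem119* and *Cldn5*) at 0 in all 10. In the 1 µl set alone these sums did not overlap, 144 to 221 in FD and 224 to 328 in fed libraries (two-sided exact permutation p = 0.1, the smallest possible there). Tanycyte and ependymal markers summed to 126 to 158 in FD and 147 to 213 in fed libraries (two-sided exact permutation p = 0.0397, adjusted p = 0.159 over 16 library values), with none of 12 at 0 in all 10. In FD libraries most of this sum was *Scn7a* (91.1 to 108), which ranged over 59.3 to 157 in fed libraries. *Vim* was at 7.24 to 31.3 in FD and 33.8 to 81.5 in fed libraries (q = 0.0913). Pituitary and blood markers summed to 12.6 or less, with 6 of 12, hemoglobin genes, *Prl* and *Gh*, at 0 throughout. The part of these other cells in the results was not tested.

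Of 16513 genes tested, 44 were called (q under 0.05, more than 2-fold, and a mean above 20 CPM in any of the 4 groups of the model), where q is the Benjamini-Hochberg adjusted p of edgeR's quasi-likelihood test. They were 0.266% of the genes tested, with 21 higher in FD (0.127%) and 23 lower (0.139%). Of the 44, 4 met the level criterion only through the AGRP libraries and are named below. Without the fold and level criteria, 62 genes had q under 0.05 (0.375%), 30 higher (0.182%) and 32 lower (0.194%). The 2 conditions were fully separated across the 10 libraries for 35 of the 44, and for 2.35% of all genes tested. With the 1 µl set alone 42 of the 44 were separated, beside 12.6% of all genes. All 44 had the same sign there, 38 of them by more than 2-fold, and 14 had q under 0.05 in a fit with these 6 POMC libraries. That fit called 22 genes (0.133% of those tested), 14 of them among the 44. Scaling by ERCC counts per µl in place of TMM moved the median log2 change of all genes from −0.02 to −1.28, and edgeR then passed 0 of the 44 (1 gene in all, 2447 at an unadjusted p under 0.05), though relative to that median all 44 kept their sign. The 1 µl libraries are part of the 10, so this is a check of the set and not a second sample. In such pooled cells, fewer cells of a type and less RNA per cell cannot be told apart.

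**Figure D1:**
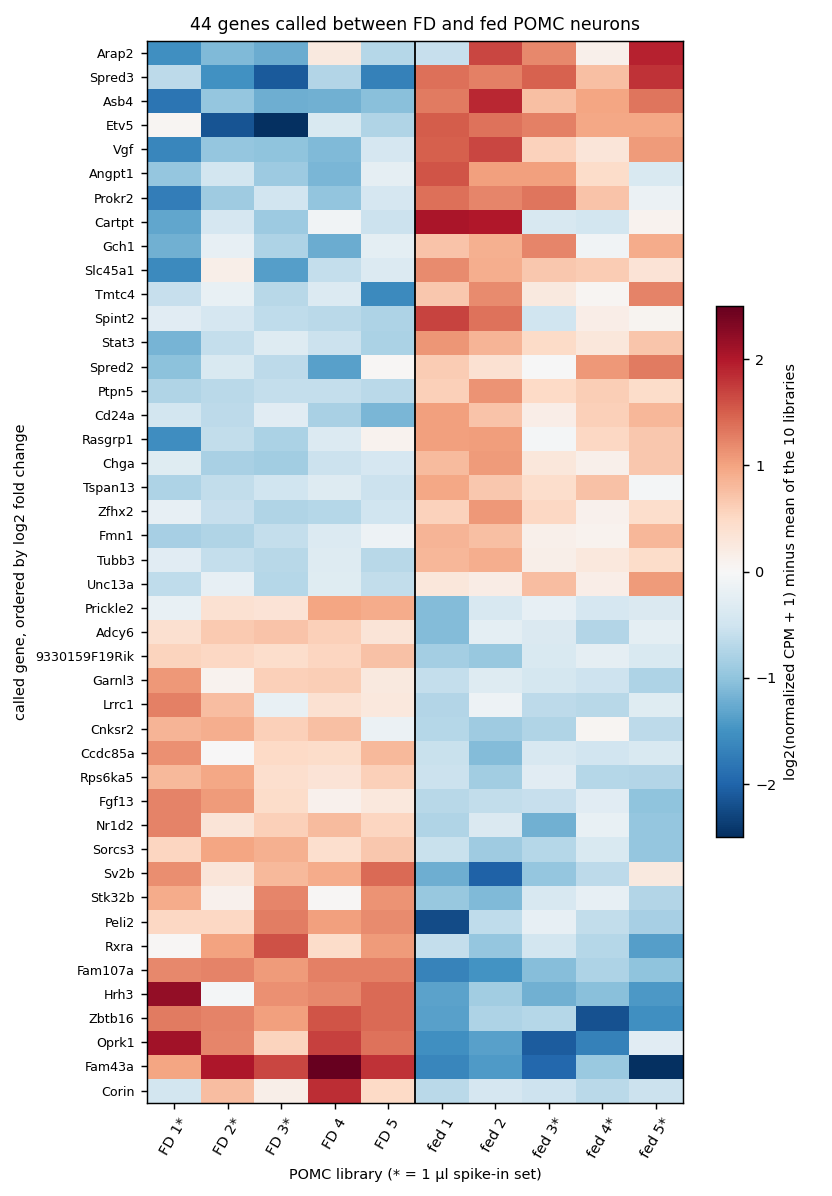
The 44 called genes, ordered by log2 fold change from top to bottom, are shown in the 10 POMC libraries (columns, asterisk for the 1 µl set), with color for log2(normalized CPM + 1) minus the gene's mean over the 10. The upper 23 are lower in FD and the lower 21 higher, and *Cartpt* and *Spint2* are high mainly in fed 1 and 2.

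The list of POMC peptides, prohormone processing and granins had 3 of 15 members lower and 0 higher at q under 0.05 in edgeR, with a list median log2 fold change of −0.39 beside −0.02 over all genes tested. In the fit on the 1 µl libraries 1 member (*Vgf*) passed, and the list median there was −0.14. Here and for the other lists, counts are those of edgeR unless a tool is named. At q under 0.05, 0.182% of all genes tested were higher and 0.194% lower. The lists were drawn up with earlier results of these data known, so their counts are description and no independent support. *Vgf*, the precursor of several secreted neuropeptides (ENSMUSG00000037428, chr5:137026392-137033351), measured 82.4, 131, 129, 120.4 and 193 normalized CPM in FD 1 to 5. In fed 1 to 5 it measured 734, 831, 388, 319 and 545. Every FD library lay below every fed library, a 4.29-fold decrease (log2 fold change −2.102, standard error 0.30, q = 0.00023), and the log2 change was −1.87 ± 0.37 (SE) in the 1 µl set (q = 0.0223). *Chga*, a granin of dense-core vesicles (ENSMUSG00000021194, chr12:102554969-102565027), measured 58.7, 41.5, 39.3, 50.1 and 54.6 in FD and 128, 153, 88.5, 80.2 and 117 in fed libraries. These did not overlap either (log2 fold change −1.21, standard error 0.22, q = 0.00344), and in the 1 µl set the log2 change was −1.04 ± 0.27 with q = 0.181.

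*Cartpt*, the precursor of the appetite-suppressing CART peptides (ENSMUSG00000021647, chr13:99898484-99900683), was called (log2 fold change −1.69, standard error 0.36, q = 0.0233), but its fed values differed between the spike-in sets, whose mice also differed in age. The FD libraries measured 436, 804, 573, 1016 and 739 normalized CPM. Fed 1 and 2 measured 4460.4 and 4348, and fed 3 to 5 measured 814, 779 and 1140.03. Of the 3 fed libraries with 1 µl, fed 3 and 4 lay within the FD range, and in the 1 µl set the log2 change was −0.60 ± 0.26 with q = 0.517, against −2.31 in the other 4 libraries. *Pomc* itself (ENSMUSG00000020660, chr12:3954951-3960618) measured 2184, 3310.1, 3567, 3782 and 3275 in FD and 6496, 8196, 3503, 3719.6 and 4823 in fed libraries and was not called (log2 fold change −0.73, standard error 0.39, q = 0.473). The tools differed here, as limma-voom, the test used in the paper, did not pass *Cartpt* but passed *Pomc* as lower. Its highest values were again in fed 1 and 2, and the log2 change in the 1 µl set was −0.42 ± 0.52. On the authors' TPM scale, which accounts for gene length, *Pomc* averaged 10743 ± 2129 TPM (SD, n = 5) in FD and 16029 ± 4652 TPM (n = 5) in fed libraries. *Cartpt* averaged 2743 ± 877 and 7639 ± 5741 TPM, and *Vgf* 149 ± 45.2 and 576 ± 179 TPM. The enzymes that cut and trim the precursor had small differences: *Pcsk1* 0.11 (standard error 0.23), *Pcsk2* 0.21 (0.18) and *Cpe* −0.07 (0.26) on the log2 scale, none with q under 0.05.

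RefSeq promoters of 300 bases (GRCm38.p6, from 250 bases before the start to 50 after) were at hand for 37 of the 44 called genes, 57 promoters in all. They were searched because CREB and ETS factors act through such motifs downstream of cAMP and ERK, and genes of both pathways were among those called. The palindromic cAMP response element, TGACGTCA, was present in 2 of the 57, those of *Cartpt* and *9330159F19Rik*, and in 1.79% of all 32851 promoters. *Cartpt* was lower and *9330159F19Rik* higher in FD, so the genes with the element did not share a direction. The ETS core CCGGAAGT was present in 1, that of *Prokr2*, and in 3.89% of all promoters. The E-box CACGTG was in 1 (*Sv2b*) and in 7.15% of all. The sterol element TCACNCCAC was in 0 and in 1.24% of all, and the glucocorticoid response element (AGAACA, 3 bases of any kind, TGTTCT) in 0 and in 0.00913% of all. Both strands were searched, and these counts give no result about the called genes as a group. The stretch around each cAMP element and ETS core is shown with up to 60 bases on each side and at most 20 past the start, 5′ to 3′ on the gene's strand, with the match in capitals. The match begins 112 bases before the start in *Cartpt*, 7 in *9330159F19Rik* and 98 in *Prokr2*.
*Cartpt* (chr13:99900728-99900855, minus strand): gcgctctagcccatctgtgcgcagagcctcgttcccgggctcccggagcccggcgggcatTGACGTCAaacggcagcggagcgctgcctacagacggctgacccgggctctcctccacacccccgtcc
*9330159F19Rik* (chr10:29211576-29211662, plus strand): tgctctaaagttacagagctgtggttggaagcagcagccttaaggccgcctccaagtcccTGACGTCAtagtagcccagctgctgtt
*Prokr2* (chr2:132385478-132385605, minus strand): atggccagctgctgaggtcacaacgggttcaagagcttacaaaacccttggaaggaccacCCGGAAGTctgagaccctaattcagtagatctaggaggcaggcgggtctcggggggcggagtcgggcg

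In the list of leptin, insulin and IGF1 signalling, 3 of 31 members were lower and 0 higher, with a list median of −0.03 (DESeq2 passed 1 more, *Insr*, as higher). The fit on the 1 µl libraries passed 2, *Asb4* and *Irs4*, with a list median of 0.12. *Asb4* encodes an ankyrin and SOCS-box protein of arcuate neurons that is known to bind IRS4 (ENSMUSG00000042607, chr6:5383386-5433022). It measured 128, 230.5, 194, 196 and 219 normalized CPM in FD and 1119, 1668, 769, 900.3 and 1155 in fed libraries, a 5.804-fold decrease with no overlap (log2 fold change −2.54, standard error 0.20, q = 4.09e-09). The 1 µl set gave −2.36 ± 0.24 (q = 1.05e-05). *Irs4*, the insulin receptor substrate of hypothalamic neurons (ENSMUSG00000054667, chrX:141710998-141725263), measured 1045, 1264, 1261, 1188 and 1090.4 in FD and 1938, 1897, 1733, 1916 and 1944 in fed libraries. Its groups were tight and separate (log2 fold change −0.69, standard error 0.10, q = 0.00023), but its 1.61-fold decrease was below the 2-fold criterion, and the 1 µl set gave −0.65 ± 0.12 (q = 0.0174). *Stat3*, the transcription factor that the leptin receptor activates (ENSMUSG00000004040, chr11:100885098-100939540), measured 77.2, 115, 139, 119 and 101 in FD and 376, 313, 244, 211 and 284 in fed libraries. It fell without overlap (log2 fold change −1.38, standard error 0.21, q = 0.000504), with −1.17 ± 0.27 in the 1 µl set (q = 0.0893).

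The leptin and insulin receptor genes did not pass in edgeR over all libraries. *Lepr*, the leptin receptor, measured 34.7, 51.6, 49.8, 30.1 and 43.6 in FD and 82.9, 66.2, 53.3, 64.7 and 72.4 in fed libraries. The groups did not overlap, with log2 fold change −0.69, standard error 0.21, q = 0.126, and −0.49 ± 0.26 in the 1 µl set (q = 0.629). *Insr*, the insulin receptor, measured 291, 152, 228, 282 and 220.4 in FD and 151, 136, 164, 123 and 171 in fed libraries (log2 fold change 0.66, standard error 0.18, q = 0.0836), with 0.55 ± 0.23 in the 1 µl set (q = 0.49). It passed with DESeq2 (q = 0.0178) and without FD 2 (q = 0.0325). *Foxo1*, which insulin signalling holds out of the nucleus, measured 56.6, 40.7, 46.2, 31.04 and 53.2 and 9.78, 13.8, 32.9, 52.2 and 32.5. Its lowest values were in fed 1 and 2, and its log2 change was 0.69 over all libraries (q = 0.293) but 0.28 ± 0.24 in the 1 µl set. *Socs3*, an inhibitor that STAT3 induces, measured 0.959, 11.3, 2.58, 0.982 and 1.09 in FD and 9.67, 7.48, 7.86, 10.04 and 3.903 in fed libraries, with overlap and q = 0.584. The melanocortin receptor *Mc3r* ranged from 11.3 to 41.1 in FD and 15.7 to 49.6 in fed libraries (q = 0.824), and *Mc4r* did not pass the count filter.

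**Figure D2:**
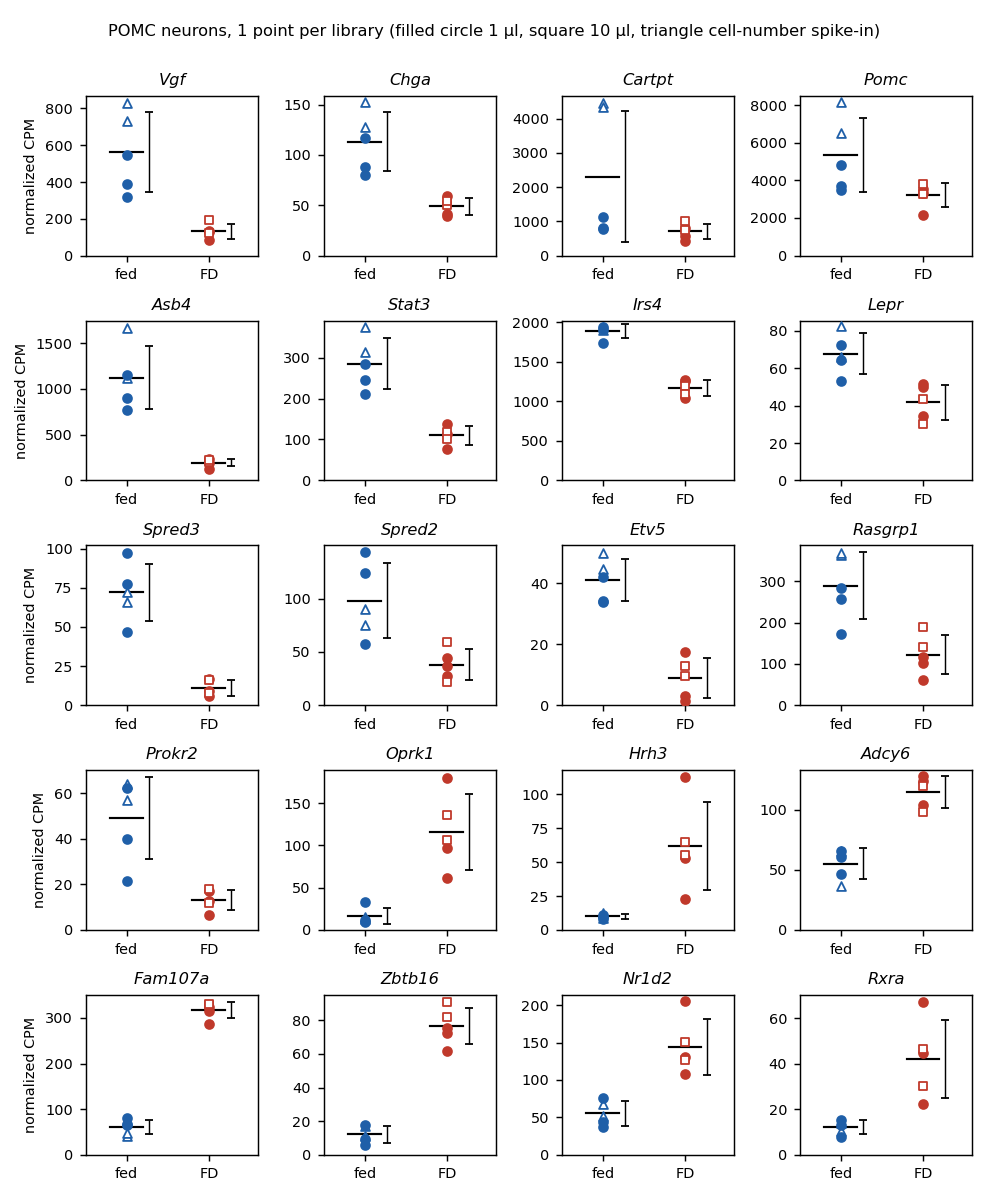
Normalized CPM of 20 genes in the 5 fed (blue) and 5 FD (red) POMC libraries, with a line at the group mean and a bar of 1 SD each way to its right (filled circles 1 µl spike-in, open squares 10 µl, open triangles set by cell number). *Asb4*, *Irs4*, *Fam107a* and *Zbtb16* show groups without overlap, while the 2 triangles of *Cartpt* lie far above the 3 fed circles.

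The list of ERK feedback regulators and ETS factors also holds other genes of the pathway, such as *Rasgrp1*. It had 4 of 22 members lower and 0 higher in each of the 3 tools, with a list median of −0.41 in edgeR (3 members and −0.49 in the 1 µl fit). Proteins of the SPRED family restrain RAS-ERK signalling, and ETV5 is an ETS factor that growth factor signalling induces. *Spred3* (ENSMUSG00000037239, chr7:29158829-29168647) measured 16.99, 8.88, 5.59, 16.01 and 7.76 normalized CPM in FD and 72.6, 66.1, 77.5, 46.7 and 97.4 in fed libraries, without overlap (log2 fold change −2.71, standard error 0.28, q = 5.32e-07). *Spred2* (ENSMUSG00000045671, chr11:19924375-20024026) measured 27.7, 43.9, 36.5, 22.01 and 58.9 and 89.9, 75.5, 57.3, 124 and 144, where FD 5 lay just above fed 3 (log2 fold change −1.37, standard error 0.27, q = 0.00854). *Etv5* (ENSMUSG00000013089, chr16:22381309-22439719) measured 17.5, 3.01, 1.52, 12.8 and 9.65 and 50.1, 44.7, 42.1, 34.04 and 34.3, without overlap (log2 fold change −2.21, standard error 0.46, q = 0.0187). *Rasgrp1*, which encodes a RAS activator and so acts in the other sense from the SPRED genes (ENSMUSG00000027347, chr2:117279993-117343001), measured 60.6, 116, 103, 139.99 and 189 and 365, 369.6, 173, 256 and 285, where FD 5 lay above fed 3 (log2 fold change −1.25, standard error 0.23, q = 0.00659).

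In the 1 µl set these 4 genes gave log2 changes of −2.83 ± 0.36, −1.59 ± 0.32, −2.34 ± 0.62 and −1.36 ± 0.26 in the same order. The q there was 0.000152, 0.0286, 0.182 and 0.0174. Other members of the list had low or uneven counts. *Spry2* measured 0.692, 0.955, 0.0423, 6.88 and 11.6 in FD and 17.02, 9.52, 12.03, 6.00 and 7.65 in fed libraries (q = 0.49), and FD 4 and 5 were unlike FD 1 to 3. *Dusp6* was at 0.0955 to 2.93 in FD and 0.667 to 30.2 in fed libraries, its high value being fed 4 alone (q = 0.347). *Etv1* had a log2 change of 0.39 (standard error 0.47). *Spry4* had no overlap and ranged over 1.07 to 6.39 in FD and 13.7 to 37.9 in fed libraries (q = 0.108).

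Receptors that couple to the Gi protein, which lowers cAMP and quiets neurons, had 2 of 35 members higher and 0 lower, with a list median of 0.53. limma-voom and DESeq2 passed 4 each, all higher, and the 1 µl fit passed 1 (*Hrh3*) with a list median of 0.24. *Oprk1*, the kappa opioid receptor for dynorphin (ENSMUSG00000025905, chr1:5588493-5606131), measured 180.1, 96.8, 61.02, 136 and 106 normalized CPM in FD and 13.4, 15.3, 8.96, 12.1 and 33.6 in fed libraries. The increase was 6.96-fold without overlap (log2 fold change 2.798, standard error 0.50, q = 0.00344), and in the 1 µl set the log2 change was 2.62 ± 0.69 with q = 0.181. *Hrh3*, the histamine H3 receptor (ENSMUSG00000039059, chr2:180099465-180104488), measured 113, 22.8, 53.3, 55.5 and 64.7 and 8.79, 12.4, 9.67, 10.9 and 8.11. Every FD library exceeded every fed library (log2 fold change 2.63, standard error 0.32, q = 1.31e-05), and the 1 µl set gave 2.71 ± 0.43 (q = 0.00268). On the TPM scale the FD means were 81.5 ± 30.9 for *Oprk1* and 76.2 ± 39.3 for *Hrh3* (SD, n = 5), against fed means of 10.98 ± 7.18 and 11.4 ± 1.92 TPM (n = 5). *Cnr1*, the cannabinoid receptor, measured 160.04, 119, 142, 113 and 168 in FD and 48.5, 43.3, 83.6, 73.3 and 78.6 in fed libraries. Its groups did not overlap, but q was 0.204 in edgeR and 0.706 in the 1 µl fit, while limma-voom passed it.

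Of 35 receptors that couple to Gq, which raises calcium, 1 was lower and 0 higher (list median −0.06). limma-voom passed 2 lower (*Prokr2* and *Oxtr*) and DESeq2 1 lower (*Prokr2*). The 1 µl fit passed 1 lower (*Ghsr*) and 1 higher (*Chrm3*), with a list median of −0.21. *Prokr2*, the receptor for prokineticin 2 (ENSMUSG00000050558, chr2:132337733-132385447), measured 6.604, 12.5, 16.9, 11.7 and 17.8 in FD and 64.3, 57.2, 62.2, 40.1 and 21.6 in fed libraries, without overlap (log2 fold change −1.904, standard error 0.33, q = 0.00212). The 1 µl set gave −1.78 ± 0.42 with q = 0.107. *Ghsr*, the ghrelin receptor, measured at most 1.89 in FD and 4.67 in fed libraries, with q = 0.089 over all libraries and 0.00121 in the 1 µl fit. *Chrm3*, a muscarinic receptor, measured 2.02 to 6.81 in FD and 0.106 to 4.64 in fed libraries, with q = 0.376 and 0.016. Both had few counts in one condition of the 1 µl set, so no fold is given. Among 24 receptors coupled to Gs, 0 passed edgeR, 3 had an unadjusted p under 0.05, 0 passed limma-voom and 1 (*Crhr1*) passed DESeq2, with a list median of 0.48 (0 passed and −0.04 in the 1 µl fit). Downstream, 1 of 46 genes of the G protein and cAMP machinery was higher and 0 lower (list median −0.02), while limma-voom passed 2 higher and DESeq2 4 higher and 2 lower. The 1 µl fit passed 0, with a list median of −0.07. The gene was *Adcy6*, an adenylyl cyclase that Gi and calcium inhibit (ENSMUSG00000022994, chr15:98589994-98607633), with 104, 124, 128, 119 and 98.1 in FD and 36.5, 65.6, 60.7, 46.7 and 65.6 in fed libraries. It rose 2.08-fold without overlap (log2 fold change 1.06, standard error 0.20, q = 0.00659), and by 1.03 ± 0.25 on the log2 scale in the 1 µl set (q = 0.116).

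Glucocorticoid-responsive genes had 2 of 23 members higher and 0 lower (list median 0.26). The 1 µl fit passed the same 2 (list median 0.21), and DESeq2 passed 4 higher and 1 lower. *Fam107a*, which encodes an actin-binding protein induced by stress and glucocorticoid (ENSMUSG00000021750, chr14:8296274-8318023), measured 315, 324, 286, 329 and 331 in FD and 42.1, 47.7, 64.7, 79.9 and 68.0 in fed libraries. It rose 5.25-fold (log2 fold change 2.39, standard error 0.20, q = 4.09e-09), and the 1 µl set gave 2.12 ± 0.23 (q = 1.75e-05). *Zbtb16*, a zinc-finger transcription factor (ENSMUSG00000066687, chr9:48654311-48835945), measured 75.7, 72.6, 61.9, 90.8 and 81.7 and 11.2, 17.04, 17.8, 5.89 and 9.66, a 6.199-fold increase without overlap (log2 fold change 2.63, standard error 0.38, q = 0.000222). The 1 µl set gave 2.65 ± 0.51 (q = 0.0182). *Fkbp5*, a co-chaperone that restrains the glucocorticoid receptor, measured 26.9, 35.2, 35.8, 89.9 and 70.2 and 20.3, 31.7, 9.16, 18.2 and 13.4 (log2 fold change 1.47, standard error 0.35, q = 0.0504), with 1.26 ± 0.37 in the 1 µl set (q = 0.279). It had q under 0.05 with DESeq2 (0.00287), RLE scaling (0.0433), no count filter (0.013) and a block for spike-in set (0.0496), and without fed 2, FD 1 or FD 2. The receptor gene *Nr3c1* differed by 0.27 (standard error 0.15) and *Per1*, also a target, by −0.06 (0.23), with q of 0.496 and 0.957.

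Of 21 circadian clock genes, edgeR and limma-voom passed 1 higher and 0 lower (list median 0.20), and DESeq2 also passed 1 lower (*Nfil3*). The 1 µl fit passed 0, with a list median of 0.21. *Nr1d2*, which encodes the repressor REV-ERBβ (ENSMUSG00000021775, chr14:18204054-18239127), measured 205, 108, 131, 151 and 127 in FD and 51.5, 67.3, 37.3, 76.4 and 43.7 in fed libraries, without overlap (log2 fold change 1.39, standard error 0.27, q = 0.00788). The log2 change was 1.49 ± 0.36 in the 1 µl set with q = 0.12. The clock gene *Per3* measured 70.8, 88.5, 62.4, 49.7 and 40.5 and 30.4, 28.4, 34.5, 35.4 and 21.3, and its groups were also separate, but q was 0.163 (0.398 in the 1 µl fit). Nuclear receptors as a list had 2 of 27 members higher, *Nr1d2* and *Rxra*, and 0 lower (list median −0.02). DESeq2 passed 3 higher and 1 lower, and the 1 µl fit 1 higher (*Rxra*) and 1 lower (*Nr4a1*), with a list median of −0.09. *Rxra*, the shared partner of many nuclear receptors (ENSMUSG00000015846, chr2:27677201-27762957), measured 22.2, 44.6, 67.1, 30.1 and 46.4 and 14.1, 10.6, 15.4, 12.96 and 7.704 and rose without overlap (log2 fold change 1.79, standard error 0.30, q = 0.0017). Its log2 change was 1.89 ± 0.40 in the 1 µl set with q = 0.0431.

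In tetrahydrobiopterin and monoamine synthesis, 1 of 16 genes was lower and 0 higher (list median −0.19), and the 1 µl fit passed 0 (list median −0.08). *Gch1*, the first enzyme of tetrahydrobiopterin synthesis (ENSMUSG00000037580, chr14:47153895-47189413), measured 16.4, 33.9, 22.4, 15.8 and 32.8 in FD and 64.4, 72.6, 91.98, 36.6 and 75.2 in fed libraries, without overlap (log2 fold change −1.49, standard error 0.32, q = 0.0232). It gave −1.49 ± 0.42 in the 1 µl set with q = 0.238. *Th*, whose enzyme needs this cofactor, was at or below 3.13 normalized CPM in every library. *Elovl5*, a fatty acid elongase and the only one of 12 genes of fatty acid synthesis and desaturation past q (list median −0.13, with 0 passed and −0.04 in the 1 µl fit), measured 92.4 to 116 in FD and 162 to 228 in fed libraries (log2 fold change −0.92, standard error 0.19, q = 0.0144). Its 1 µl value was −0.95 ± 0.25 (q = 0.169). Of 20 arcuate lineage transcription factors, 2 were lower and 0 higher, *Stat3* and *Zfhx2* (ENSMUSG00000040721, chr14:55060262-55092324), with a list median of 0.18. limma-voom passed 1 lower (*Stat3*), DESeq2 1 higher (*Bsx*) and 3 lower, and the 1 µl fit 1 higher (*Bsx*) and 1 lower (*Nr4a1*). *Zfhx2* lost q under 0.05 with limma-voom and with a block for spike-in set. *Zfhx2*, a zinc-finger homeobox gene, measured 64.02, 49.8, 43.8, 44.99 and 52.1 and 112, 158, 107, 80.1 and 101, without overlap (log2 fold change −1.13, standard error 0.24, q = 0.0233), and the 1 µl set gave −0.88 ± 0.31 (q = 0.391).

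**Figure D3:**
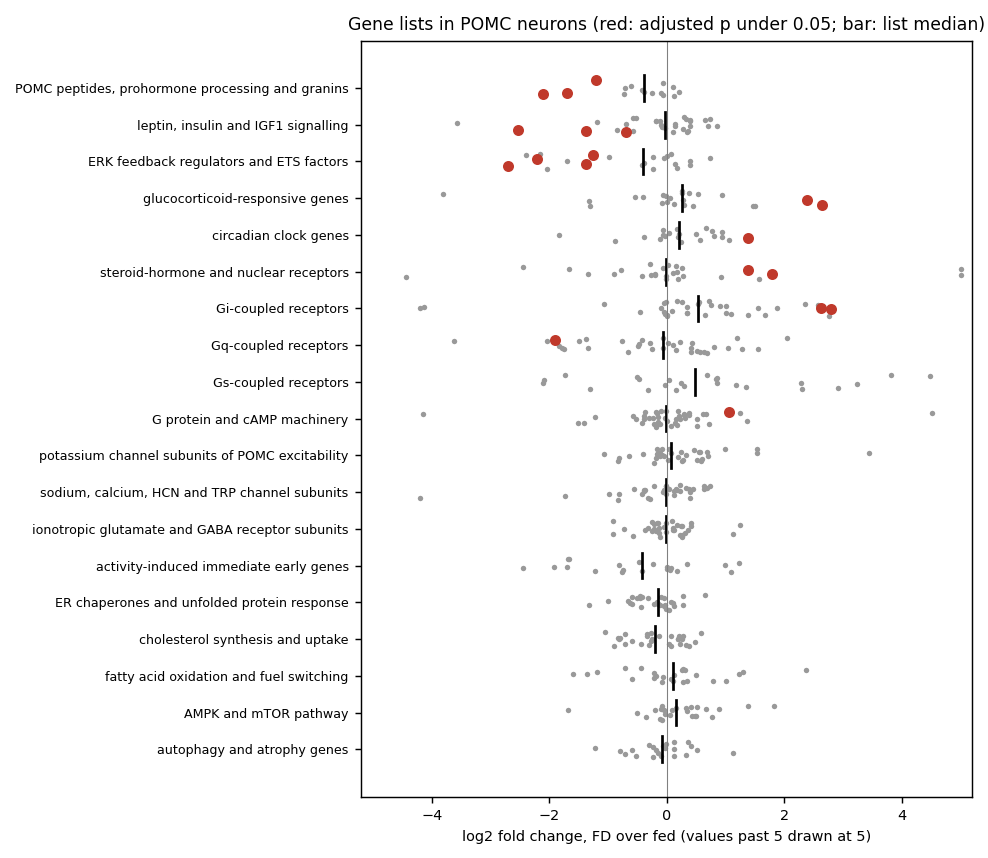
Log2 fold changes (FD over fed) of the tested members of 19 gene lists in POMC neurons (horizontal axis, values past 5 drawn at 5), with red points for q under 0.05, grey points for the rest and a black bar for the list median. Lists of POMC peptides, leptin and insulin signalling, and ERK feedback hold red points at negative values only, and Gi receptors, glucocorticoid-responsive genes, clock genes and nuclear receptors at positive values only.

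Of the 44 called genes, 24 were in none of the 30 lists. *Fam43a*, of little-known function (ENSMUSG00000046546, chr16:30599723-30602797), showed the largest fold among called genes without overlap, with 25.8, 53.8, 42.02, 75.4 and 46.2 in FD and 3.37, 4.04, 2.48, 6.05 and 0.616 in fed libraries (log2 fold change 3.87, standard error 0.51, q = 5.58e-05). Its log2 change in the 1 µl set was 3.73 ± 0.70 (q = 0.016). Some further genes with q under 0.05 are given singly, named after their values were seen. *Sv2b*, a synaptic vesicle glycoprotein, rose by 1.72 on the log2 scale (q = 0.00397) and by 1.17 in the 1 µl set (q = 0.275). *Unc13a*, which primes synaptic vesicles, fell from 232 ± 68.4 to 114 ± 18.4 normalized CPM (SD, n = 5 each; q = 0.0158), and the 1 µl set gave −1.23 ± 0.27 (q = 0.0681). *Syt4*, a synaptotagmin of dense-core vesicles, passed q at −0.69 (q = 0.0144) without reaching the 2-fold criterion, and gave −0.47 ± 0.17 in the 1 µl set. *Sorcs3*, a sorting receptor of the VPS10 family, rose from 14.4 ± 2.55 to 40.0 ± 6.76 (q = 7.92e-06) and kept q = 0.000647 in the 1 µl set. The growth factor homolog *Fgf13*, which binds sodium channels, rose by 1.33 (q = 0.00679) and by 1.56 in the 1 µl set (q = 0.0363).

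The neuronal tubulin genes *Tubb3* and *Tuba1a* were lower, at −1.06 (q = 0.00679) and −0.64 (q = 0.0436) over all libraries. In the 1 µl set their log2 changes were −0.82 ± 0.25 and −0.37 ± 0.17, and q was 0.313 and 0.566. The striatal-enriched phosphatase gene *Ptpn5*, whose product removes phosphate from ERK, fell from 167 ± 35.2 to 65.7 ± 2.97 normalized CPM (q = 0.00165), and by −1.21 ± 0.30 on the log2 scale in the 1 µl set (q = 0.132). The kinase gene *Rps6ka5*, whose product acts downstream of ERK and phosphorylates CREB, rose by 1.31 (q = 0.0207), with 1.35 in the 1 µl set (q = 0.183). *Npm1*, a nucleolar protein, was higher in every FD library, 1017 to 1196 against 514 to 811, by 0.65 on the log2 scale (q = 0.0327), with 0.50 in the 1 µl set (q = 0.359). The calcium/calmodulin kinase gene *Camk4* was lower, at −0.91 (q = 0.0233) over all libraries and −1.24 (q = 0.00518) in the 1 µl set, where it was called. Of the 44, 14 share exonic bases with another gene of GENCODE M21, among them *Stat3* with *Stat5a*, *Spred3* with *Ggn*, *Unc13a* with *Colgalt1*, and *Hrh3* and *Adcy6* with the predicted genes *Gm17180* and *Gm29331*. As reads were counted without strand, their values can include or lose reads of those neighbors.

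The lists that follow held no gene past q in edgeR over all libraries, where 12.2% of all genes tested had an unadjusted p under 0.05. Potassium channel subunits had 0 of 35 past q, with 7 higher and 1 lower at an unadjusted p under 0.05 and a list median of 0.07. Each of limma-voom and DESeq2 passed 3, *Kcnq3* among them in both. *Kcnq3*, a subunit of the M-current that damps firing, measured 699, 400.2, 365, 452 and 356 in FD and 136, 192, 173, 142 and 143 in fed libraries, with q = 0.0556 and a log2 change of 1.67 ± 0.51 in the 1 µl set. Every FD library lay above every fed library. *Kcnj11*, the pore of the ATP-sensitive potassium channel, was low, at 1.704 to 19.1 in FD and 0 to 1.26 in fed libraries (q = 0.144), and passed DESeq2 (q = 0.0158). Sodium, calcium, HCN and TRP channels had 0 of 35 past q, 8 at an unadjusted p under 0.05 (list median −0.01), 1 (*Nalcn*) in limma-voom and 2 (*Nalcn* and *Trpc6*) in DESeq2. Ionotropic glutamate and GABA receptors had 0 of 36, 2 at an unadjusted p under 0.05 (list median −0.02) and 0 in either other tool.

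Immediate early genes, which neuronal activity induces, had 0 of 21 past q in edgeR, 4 lower and 0 higher at an unadjusted p under 0.05 (list median −0.43), 0 in limma-voom and 1 (*Nr4a1*) in DESeq2. The edgeR fit on the 1 µl libraries passed *Nr4a1* as lower (q = 0.0493), which reached at most 11 in FD and ranged over 6.98 to 31.2 in fed libraries. *Fos* measured 106, 102, 94.1, 80.8 and 118 in FD and 139.98, 152, 82.5, 129 and 86.9 in fed libraries, with overlap (q = 0.824). ER chaperones and the unfolded protein response had 0 of 29 past q, 5 lower at an unadjusted p under 0.05 (list median −0.15), 0 in limma-voom and 1 (*Sdf2l1*) in DESeq2. *Hspa5*, the main ER chaperone, ranged over 571 to 913 in FD and 621 to 1013 in fed libraries (q = 0.443, and 0.627 in the 1 µl fit). Cholesterol synthesis and uptake had 0 of 30 past q, 4 lower at an unadjusted p under 0.05 (list median −0.19), 1 (*Msmo1*) in limma-voom and 2 in DESeq2. *Msmo1*, a sterol methyl oxidase, was at 18.8 to 44.97 in FD and 56.6 to 107 in fed libraries (q = 0.0563, and 0.182 in the 1 µl fit). Fatty acid oxidation and fuel switching had 0 of 25 past q and 5 at an unadjusted p under 0.05 (list median 0.10), with 0 in both other tools. The AMPK and mTOR pathway had 0 of 25 and 4 higher at an unadjusted p under 0.05 (list median 0.15), with 0 in limma-voom and 1 (*Sesn1*) in DESeq2. For autophagy and atrophy genes these counts were 0 of 22 and 5 (list median −0.08), with 0 in both other tools. Of 12 genes of fast transmitter synthesis and transport, 0 passed edgeR and 3 had an unadjusted p under 0.05 (list median 0.13). Among these *Gad2*, a GABA-synthesizing enzyme, passed limma-voom and DESeq2, and measured 947 to 1580.2 in FD and 1615 to 2219.7 in fed libraries (q = 0.0719, and 0.327 in the 1 µl fit). Heat shock and dissociation stress genes had 0 of 15 past q in edgeR and limma-voom and 1 (*Hspe1*) in DESeq2, with 4 lower at an unadjusted p under 0.05 (list median −0.34). Their sum was 5718 to 6794 normalized CPM in FD and 6694 to 7437 in fed libraries (two-sided exact permutation p = 0.0317, adjusted p = 0.159), and in the 1 µl set 5718 to 6794 against 6712 to 7437 (exact p = 0.2). Other neuropeptide precursors had 0 of 19 past q in any of the 3 tools and 4 at an unadjusted p under 0.05 (list median 0.17). Glial and endothelial markers had 0 of 13 past q in any tool and 3 at an unadjusted p under 0.05 (list median −0.11). Tanycyte and ependymal markers had 0 of 7 in edgeR, 2 lower at an unadjusted p under 0.05 (list median −0.16), 1 (*Frzb*) in limma-voom and 2 (*Frzb* and *Vim*) in DESeq2. Blood and pituitary markers had 0 of 3 in any tool and 0 at an unadjusted p under 0.05 (list median 0.31). In the 1 µl fit these lists passed no gene but *Nr4a1*, and their medians ran from −0.38 to 0.77.

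Among 12 tested markers of other arcuate neurons, 1 was higher and 0 lower (list median 0.09, and −0.15 in the 1 µl set), with 0 in limma-voom. It was *Corin*, a marker of AGRP neurons (ENSMUSG00000005220, chr5:72300025-72504473), which measured 0.1598, 1.72, 0.762, 4.72 and 1.23 normalized CPM in FD and 0, 0.185, 0.118, 0 and 0.103 in fed POMC libraries. The fed libraries were near or below the floor of 3 counts (0.111 to 0.166 normalized CPM), so no fold is given, and it met the level criterion only through the AGRP libraries, as did *Arap2*, *Angpt1* and *Stk32b*. None of these 4 genes kept q under 0.05 with limma-voom or in an edgeR fit of the POMC libraries alone. In the latter fit q was 0.293 for *Corin*, 0.306 for *Arap2* and 0.269 for *Angpt1*. *Agrp* measured 4.15, 5.06, 13.2, 16.6 and 16.97 in FD and 3.04, 1.52, 2.95, 2.87 and 9.45 in fed POMC libraries (log2 fold change 1.496, standard error 0.42, q = 0.102), against a mean of 3434 normalized CPM in FD AGRP neurons. In the 1 µl set its log2 change was 0.57 ± 0.49, and it had q under 0.05 without fed 5 (0.0121) and with no count filter (0.0286). *Npy* measured 4.42, 7.12, 3.43, 26.2 and 25.2 and 0.221, 0.03704, 5.11, 7.75 and 15.7, and its sign depended on the set, 1.19 over all libraries and −0.94 in the 1 µl set (q = 0.469 and 0.461). Markers of other arcuate neurons summed to 287 to 498 in FD and 243 to 365 in fed libraries, with none at 0 in all 10. Their part in the results was not tested.

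The spike-in sets were compared for all called genes. The median log2 change of the 21 higher genes was 1.47 over all libraries and 1.49 in the 1 µl set, and that of the 23 lower genes −1.38 and −1.23. The 6 genes that did not reach 2-fold in the 1 µl set were *Cartpt*, *Spint2*, *Prickle2*, *9330159F19Rik*, *Tubb3* and *Zfhx2*. *Spint2*, a protease inhibitor, measured 26.5, 24.2, 20.8, 19.9 and 18.6 in FD and 107, 85.1, 22.9, 36.9 and 34.4 in fed libraries. As for *Cartpt*, fed 1 and 2 lay far above fed 3 to 5, and the log2 change was −0.40 ± 0.29 in the 1 µl set but −2.29 in the other 4 libraries. *Spint2* was also the only one of the 44 with an unadjusted p of 0.05 or more in the 1 µl fit. In the opposite sense *Arap2* changed more in the 1 µl set (−4.56 ± 0.68) than in the other libraries (−1.496), at levels of 10.6 normalized CPM or less.

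**Figure D4:**
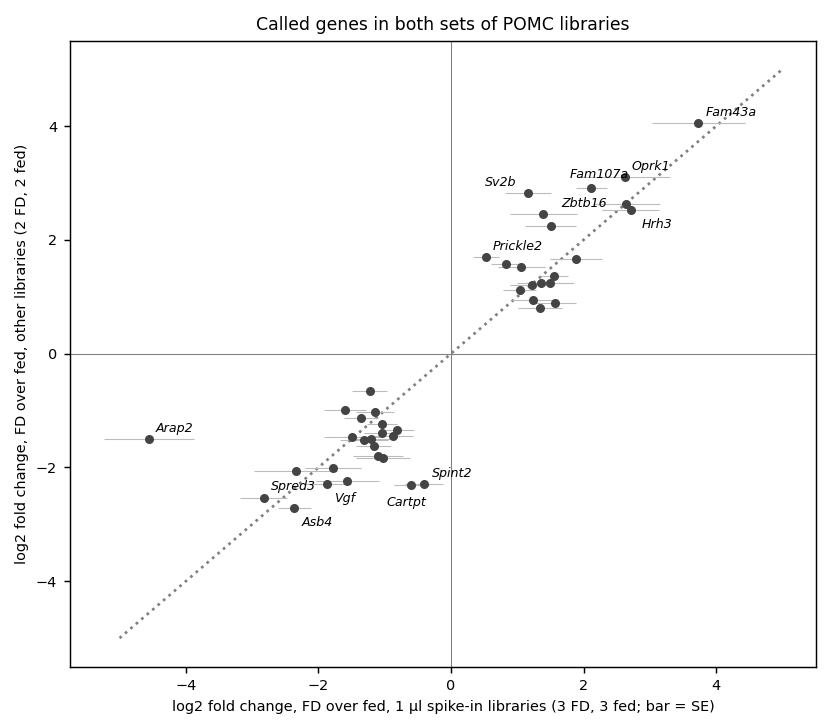
Log2 fold change (FD over fed) of 43 called genes in the 1 µl spike-in libraries (horizontal axis, 3 FD and 3 fed, bar of 1 SE) and in the other POMC libraries (vertical axis, 2 FD and 2 fed). *Corin* is left out because its fed libraries are near the floor. All points lie in the lower left or upper right quadrant, and *Cartpt* and *Spint2* lie nearest to 0 among the lower genes on the horizontal axis.

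The change with deprivation differed between POMC and AGRP neurons for 33 of the 44 called genes, by the interaction test of the same model, which was past q for 6.71% of all genes tested. The 44 were selected by their POMC change, which is itself part of this difference. A share above that of all genes is therefore built in, and the count gives no result about the 44 as a group. For 25 of the 44 the sign in AGRP neurons was opposite, as it was for 51.8% of all genes tested. In AGRP neurons 23 of the 44 had q under 0.05, beside 10.3% of all genes, 7 with the same and 16 with the opposite sign. *Vgf* was −2.102 in POMC and 4.76 (standard error 0.34) in AGRP neurons on the log2 scale, a difference of −6.86 (q = 2.63e-11). *Hrh3* was 2.63 in POMC and −3.04 in AGRP neurons (difference 5.67, q = 1.03e-09). *Spred3*, *Spred2* and *Etv5* were 1.71, 1.22 and 1.696 in AGRP neurons, each opposite in sign to POMC neurons with a difference past q. *Rasgrp1* of the same list was −1.25 in AGRP neurons, beside −1.25 in POMC neurons (difference −0.0010, standard error 0.31, q = 1). The glucocorticoid-responsive genes *Fam107a* and *Zbtb16* were 0.79 and 1.87 in AGRP neurons. The change of *Fam107a* was larger in POMC neurons (difference 1.601, q = 0.000176), and for *Zbtb16* a difference was not shown (0.76, standard error 0.49, q = 0.418). *Asb4* was −0.11 in AGRP neurons (standard error 0.18), and the difference of −2.42 had q = 8.6e-07. *Lepr*, which was not called in POMC neurons, was 2.39 in AGRP neurons (difference −3.09, q = 3.18e-08).

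**Figure D5:**
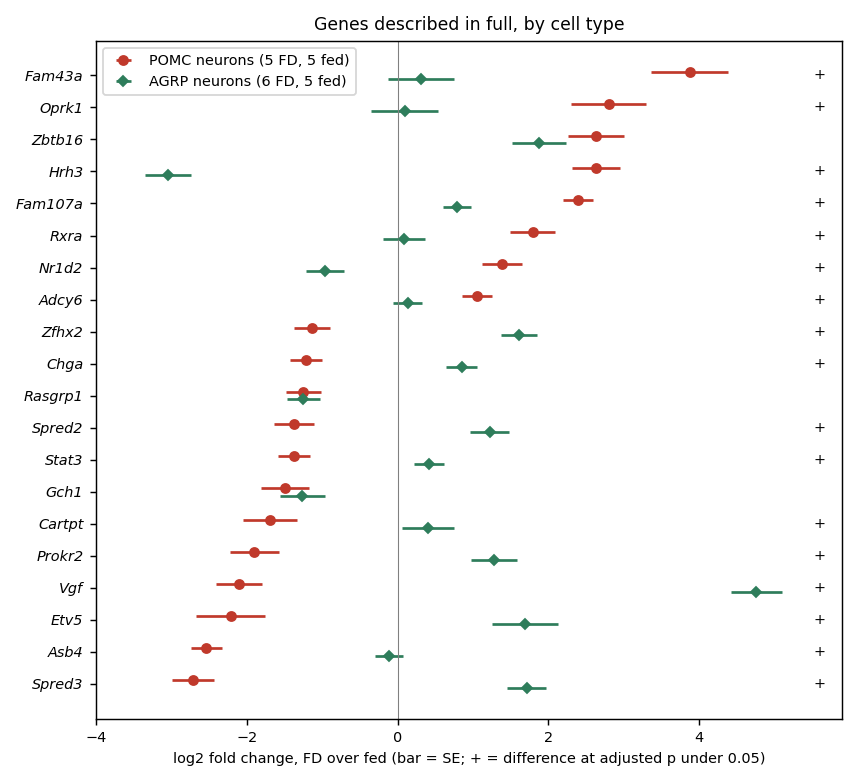
Log2 fold change (FD over fed, bar of 1 SE) of 20 genes in POMC neurons (circles, 5 FD and 5 fed libraries) and AGRP neurons (diamonds, 6 FD and 5 fed). A plus sign marks genes whose change differed between the cell types at q under 0.05. *Vgf* and *Hrh3* lie on opposite sides of 0 in the 2 cell types, and *Gch1* and *Rasgrp1* lie together.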

How the data were processed

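The authors mapped reads to mm10 with STAR 2.4.0i and made the deposited counts with HTSeq 0.6.1p1, unstranded, from uniquely mapped reads on 35266 genes of GENCODE VM4, after trimming with cutadapt 1.7.1 and removing abundant sequences with Bowtie2 2.1.0. The authors also deposited TPM, which corrects for gene length. The 92 ERCC and 5 summary entries were left out. Genes with CPM over 1 in at least 3 of 21 libraries were kept, scaled by TMM and fitted with 4 groups by edgeR 4.0.16 (R 4.3.3, quasi-likelihood, two-sided, Benjamini-Hochberg over all genes tested), taking filter and criteria from the paper's methods. Standard errors were taken from the log2 fold change and the F statistic. limma 3.58.1 (voom), DESeq2 1.42.0, other scalings, filters, blocks, library sets and each POMC library left out were alternatives. The model was tested on simulated data. Library values were compared by two-sided exact permutation (252 arrangements, smallest p 0.0079 after rounding). The members, gene lists and tests were chosen with earlier results of these data known. Named in full are called genes in a list and the 10 largest changes without overlap. Further named are other list members with q under 0.05 and a fixed set of 25 genes. Some of these genes are not reported here. Other genes with q of 0.05 or more, such as *Kcnq3*, *Gad2*, *Cnr1* and *Per3*, were chosen after their values were seen. Of 733 listed genes, 730 were found in the table by symbol. RNA was amplified without molecular identifiers, so counts are not independent molecules. The table's start positions count from 0, and positions given here count from 1. No 2 libraries of a group agreed within counting noise.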

Additional observations from a re-analysis of the deposited data

Results flagged for a closer look

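In groups of 5 libraries, 1 library stood apart from the other 4 by Dixon's criterion in 5 of the 86 groups checked (43 genes, FD and fed), and chance gives about 1 in 20. These were *Agrp* in fed 5 at 9.45 normalized CPM, *Dusp6* in fed 4 at 30.2, *Kcnj11* in FD 5 at 19.1, *Oprk1* in fed 5 at 33.6 and *Socs3* in FD 2 at 11.3. The fed 5 library held the highest fed value of both *Agrp* and *Oprk1*.

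For 18 of the 21 genes described in full, the change with deprivation differed between POMC and AGRP neurons (interaction in edgeR, q under 0.05). These genes were selected by their POMC change, which is part of the difference, so a high count is built in. The POMC change less the AGRP change, in log2 units, was −6.86 for *Vgf*, −4.42 for *Spred3*, −3.91 for *Etv5*, −3.18 for *Prokr2*, −2.74 for *Zfhx2*, −2.59 for *Spred2*, −2.42 for *Asb4*, −2.099 for *Cartpt*, −2.07 for *Chga* and −1.798 for *Stat3*. It was 0.92 for *Adcy6*, 1.601 for *Fam107a*, 1.704 for *Rxra*, 2.35 for *Nr1d2*, 2.71 for *Oprk1*, 3.56 for *Fam43a* and 5.67 for *Hrh3*. The fitted value of 3.43 for *Corin* depends on the prior count, since its fed POMC libraries are near the floor, and is no measure of size. These differences were fitted over all libraries only, not in the 1 µl set. There the POMC change of *Cartpt* was −0.60 ± 0.26 (q = 0.517 in edgeR), so its difference depends on fed 1 and 2.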

How the results depend on the processing

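All 44 called genes kept their direction in every alternative (for spike-in scaling, relative to its median shift), and 24 kept q under 0.05 in 8 other fits and in all 10 that left out 1 POMC library. The 8 were limma-voom, DESeq2, RLE scaling, no count filter, POMC libraries alone, blocks for replicate and for spike-in set, and a covariate for sorted cells. Among POMC libraries the 10 µl set was all FD and the cell-number set all fed. Outside the 1 µl set, the spike-in block therefore assumes that set effects are the same in AGRP and POMC neurons. They leave out spike-in scaling, where 0 of the 44 kept q under 0.05. Also left out are the fits on 1 µl libraries, with AGRP libraries and alone, where 14 did in each. DESeq2 called 138 genes (57 higher, 81 lower, and 382 with q under 0.05) and the fit without count filter 68. With limma-voom 47 genes were called, 32 of them among the 44. The POMC libraries alone gave 37, with 31 among the 44. There 13 of the 44 lost q under 0.05, *Etv5* among them (q = 0.063). With 1 µl POMC libraries and AGRP libraries kept, 22 genes were called (27 with q under 0.05), and with those 6 libraries alone 17 (19). Scaling by ERCC counts per µl called 0 genes (1 with q under 0.05, 2447 with an unadjusted p under 0.05) and moved the median log2 change of all genes from −0.02 to −1.28. Fed 1 and 2 stand apart in this ratio. Leaving out 1 POMC library gave 33 to 76 called genes and 40 to 111 with q under 0.05. The highest counts came without fed 3 and the lowest without FD 3.

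Same-numbered FD and fed libraries are different mice and did not deviate together (r −0.11 to 0.06, with 0 of 5 over 0.1, and 1 of 5 best matched with its own number). With the replicate block 38 genes were called and 48 had q under 0.05, 34 of the 44 among the called. *Cartpt* lost q under 0.05 with limma-voom, in the POMC libraries alone, with either block and without fed 1, fed 2, FD 1, FD 3 or FD 5. *Pomc* had q under 0.05 with limma-voom only.

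The sign of 6 genes that were not called changed. With 1 µl libraries, the log2 change with AGRP libraries kept and alone was −0.30 and −0.30 for *Etv1*, 0.015 and 0.015 for *Fos*, 0.18 and 0.18 for *Mc3r*, −0.94 and −0.94 for *Npy*, and 0.041 and 0.041 for *Per1*. With a block for spike-in set it was −0.059 for *Etv1* and 0.048 for *Mc3r*. With ERCC scaling, less the shift, it was 0.13 for *Cpe* and 0.020 for *Per1*. With 1 POMC library left out it ranged from −0.16 to 0.038 for *Cpe* and from −0.20 to 0.11 for *Per1*, turning positive without fed 3 or FD 4. Low counts limit *Corin*, *Kcnj11*, *Dusp6* and *Socs3*. Depth was lowest in FD 4.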

Other observations

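The fit on the 1 µl libraries called 8 genes that were not among the 44: *6330403A02Rik*, *Acvr1c*, *Arhgef3*, *Bsx*, *Camk4*, *Cyp4v3*, *Ghsr* and *Gpr126*, all named after their values were seen. Of these, 5 (*Arhgef3*, *Bsx*, *Cyp4v3*, *Ghsr* and *Gpr126*) had means of 20 CPM or less in the 1 µl POMC libraries and met the level criterion only through the AGRP libraries. *Bsx*, a homeobox factor of arcuate feeding neurons, measured 8.68, 10.4, 3.004, 0.0982 and 0.798 normalized CPM in FD and 0.0553, 1.41, 0.904, 0.159 and 0.0514 in fed POMC libraries. FD 1 to 3 lay above fed 3 to 5, while FD 4 and 5 overlapped fed 1 and 2. *Otp*, a marker of AGRP neurons, measured 0.586, 11.1, 1.18, 9.63 and 9.79 and 0.111, 0.0741, 2.59, 1.81 and 1.90 (q = 0.0659), with its lowest values in fed 1 and 2.

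Gene counts per ERCC count, multiplied by the µl added, were also taken per sorted cell. In the 1 µl set they were 1.56, 1.99 and 2.14 in FD and 1.84, 1.57 and 2.54 in fed libraries (two-sided exact permutation p = 0.9, where the smallest possible is 0.1). FD 4 and 5 had 0.710 and 0.786, and fed 1 and 2 had 4.36 and 5.12.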
